A study of Mus musculus with 14 samples.

Results

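The RNA of LSK cells (Lin-Sca1+c-kit+) was compared with that of LK cells (Lin-c-kit+) from the bone marrow of mice that expressed Jak2V617F and received PBS. The comparison holds 6 of the 14 samples of the series, 3 LSK and 3 LK libraries, taken by their labels and joined gene by gene. Bone marrow of Mx1Cre; Jak2 VF/+ mice, in which Mx1Cre is switched on by pI-pC and the mutant allele is heterozygous, had been transplanted into lethally irradiated C57BL/6 recipients. PBS was injected 3 times per week for 16 weeks, and the marrow was depleted of lineage-positive cells before sorting. All 6 libraries share the allele, the Cre, the transplant and the injections, so the comparison is between cell populations and has no wild-type arm. The labels do not name the animals or give their age, and the gates as given do not separate host cells that survived irradiation. The labels do not say whether an LSK and an LK library with the same number came from the same animal. Nothing in the labels says that replicates came from separate animals, so p-values measure only the spread between these samples, which may be technical.

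LSK and LK are the c-kit-positive part of the marrow that lacks the markers of mature blood cells. LSK cells include the long-term hematopoietic stem cells and the multipotent progenitors that lie just below them. LK populations are rich in committed progenitors of granulocytes, monocytes, erythrocytes and megakaryocytes. The LK gate is given without a Sca-1 term, and whether Sca-1-positive cells were gated out is not stated in the sources used here. JAK2 carries the signals of the erythropoietin and G-CSF receptors, among others, and the V617F change leaves it active without a ligand.

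The libraries held 12172400 to 18544346 counted read pairs. Expression is given as CPM, the count scaled to library size with TMM factors, and a log2 fold change is LSK minus LK, so that a positive value means more RNA in LSK cells. A call needed 2 things, a log2 fold change beyond 0.5 in either direction and a Benjamini-Hochberg adjusted p, from edgeR's quasi-likelihood test, under 0.05. Bulk samples cannot tell fewer cells of a type from less RNA per cell. LSK replicate 2 stood apart from the other LSK libraries: it differed by more than 2-fold from LSK replicates 1 and 3 at 3021 and 3067 genes, against 888 genes between those. A count was found for 15360 genes in this library and for 16899 to 19590 in the other 5. Ribosomal RNA genes took 3.58% of the counts in LSK replicate 2 and 3.49% in LK replicate 1, and at most 0.798% in the others. LK replicate 3 lay closest to the LSK libraries, with 2547 genes over 2-fold apart from LSK replicate 3.

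The sort is visible in the RNA. Ly6a, which encodes Sca-1, was at 28.6, 42.4 and 32.6 CPM in the 3 LSK libraries and 0.746, 0.264 and 0.824 in the 3 LK libraries. Kit, which encodes c-kit and was selected in both gates, was at 586, 425 and 609.8 CPM in the 3 LSK libraries and 305, 307 and 357 in the 3 LK libraries. Ly6a and Kit were used to choose the cells, so their difference is not a finding. Of the antigens used to remove mature cells, Cd3e, Cd4 and Cd8a had at most 5 counts in any library and could not be tested. Of the 8 genes of these antigens, 2 were tested and 1 was called, Ly6c2, which was lower in LSK cells (-2.46 ± 0.37). The summed level of the 8 genes was 13.6 to 29.4 CPM in LSK and 72.2 to 157 CPM in LK libraries. Ly6c2 alone made up nearly all of the LK sums and most of the LSK sums. The part of these antigens in the results was not tested.

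Of 12737 genes tested, 2345 were called higher (18.4%) and 1635 lower (12.8%) in LSK than in LK cells. The libraries of both groups did not overlap for 6419 genes (50.4%), of which 3337 (26.2%) were above in LSK and 3082 (24.2%) above in LK. Large differences were more often in favour of LSK, with 765 called genes above a log2 fold change of 2 and 305 below -2. The counts were 2796 and 2169 without LSK replicate 2. They were 1302 and 843 without LK replicate 1 and 1318 and 996 without LK replicate 2, so that the number of calls, but not the excess of higher calls, rested on these libraries. The median log2 fold change of all genes tested was 0.04.

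**Figure D1:**
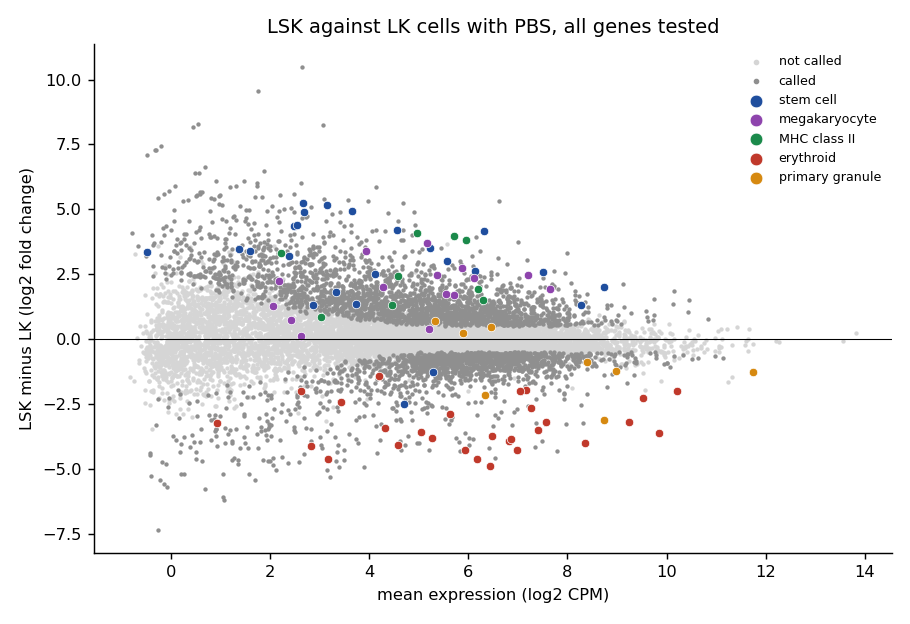
Each point is 1 of the 12737 genes tested, with mean expression in log2 CPM on the horizontal axis and the log2 fold change of LSK minus LK on the vertical axis. Called genes are in darker grey, others in light grey, and colours mark members of 5 gene groups. Every erythroid gene (red) lies below 0 and every megakaryocyte (purple) and MHC class II gene (green) above 0.

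Of the called genes whose groups did not overlap and whose average was 1 log2 CPM or more, the largest differences in favour of LSK were in genes that LK cells barely expressed. Sgsm1, a regulator of Rab small GTPases, was at 7.45, 19.1 and 10.4 CPM in LSK cells and had 0 counts in every LK library, at least 58.4-fold higher against a floor of 3 counts per library. Nkx2-3, a homeodomain transcription factor, was at 13.9, 24.4 and 11.3 CPM in the 3 LSK libraries and 0, 0 and 0.15 in the 3 LK libraries, at least 78.5-fold higher. Lhcgr, the luteinizing hormone receptor, was at 8.52, 2.29 and 8.6 CPM in LSK cells and at 0 counts in LK cells, at least 30.7-fold higher. These genes therefore separated the populations almost as present and absent. Apob, the apolipoprotein of low-density lipoproteins, was at least 33.6-fold higher and Gm4841 at least 29.8-fold. For 3 further genes LSK replicate 2 decided the size. Gm5111 was at 2.05, 13.2 and 3.83 CPM in LSK, at least 30.3-fold higher and at least 14-fold without that library. Slc16a11, of a family of monocarboxylate transporters, was at 1.83, 12.8 and 1.3 CPM, at least 25.3-fold higher and at least 7.41-fold without it. Fam181b was at 2.51, 8.28 and 3.3 CPM, at least 22.3-fold higher and at least 13.8-fold without it. Apol7e had a log2 fold change of 6.00 ± 0.76 (SE), and the tenth was Ly6a itself. LSK replicate 2 was the highest library for Sgsm1, Nkx2-3, Slc16a11, Gm5111, Apol7e and Fam181b and the lowest for Lhcgr and Gm4841.

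On the other side, Epx, the eosinophil peroxidase, was at 1.14, 0.158 and 0.0589 CPM in the 3 LSK libraries and 14.1, 33.4 and 5.4 in the 3 LK libraries. Sfrp4, a secreted antagonist of Wnt signaling, was at 0.761, 0.394 and 1.53 CPM in the 3 LSK libraries and 23.4, 42.8 and 19.7 in the 3 LK libraries. Phyhip was at 0.609, 0.315 and 0.589 CPM in the 3 LSK libraries and 17.6, 24.2 and 8.92 in the 3 LK libraries. For all 3 genes every LK library lay above every LSK library. The SLC6-family transporter gene Slc6a20a was at least 18.2-fold lower in LSK cells and the long noncoding RNA 5430401H09Rik at least 18-fold, each with at most 3 counts in any LSK library. The serine protease gene Prss50, also at most at 3 counts there, was at 1.82, 7.92 and 1.2 CPM in LK, at least 17.1-fold lower in LSK and at least 7.07-fold without LK replicate 2. The other 4 were 6030468B19Rik (-5.45), an unnamed gene with the identifier ENSMUSG00000118448 (-5.22), the antisense gene Asb17os (-5.04) and Sh2d4a (-4.93), all as log2 fold changes.

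Gene groups differed in opposite directions. Stem cell genes had a median log2 fold change of 3.27, MHC class II genes of 2.43 and megakaryocyte genes of 2.0, whereas erythroid genes had a median of -3.56, heme synthesis and iron genes of -1.73 and primary neutrophil granule genes of -1.05 (-0.65 without LK replicate 3). The median of all genes was 0.04. Counts called in any group compare with 18.4% called higher and 12.8% called lower over all genes tested. For the Hox, erythroid, heme and iron, megakaryocyte, interferon-stimulated, MHC and both ribosomal protein groups, which had no edgeR call in one direction, there were also 0 genes in that direction at an unadjusted p under 0.05 and 0 by DESeq2. Among primary granule genes, 1 was higher in LSK by both of these criteria.

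**Figure D2:**
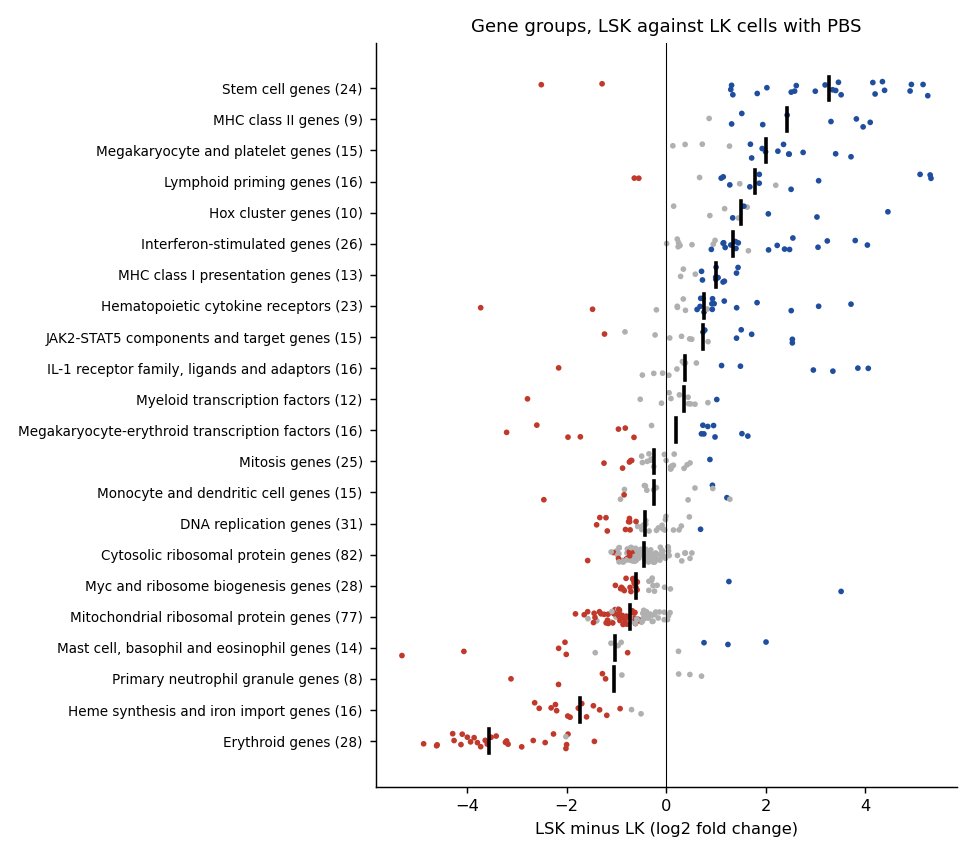
Each point is the log2 fold change (LSK minus LK, horizontal axis) of 1 gene of the group named at the left, with the number of genes tested in parentheses. Black bars are medians, blue points were called higher in LSK, red points lower, and grey points were not called. Groups run from stem cell genes at the top (median 3.27) to erythroid genes at the bottom (median -3.56).

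Stem cell genes were higher in LSK cells almost without exception. Of 30 genes listed, 24 had enough counts to be tested, and 22 of these were called higher and 2 lower, against 18.4% and 12.8% of all genes. The median was 3.10 with the 1 gene at the floor set to its bound. Hlf, a transcription factor of stem cell maintenance, was at 199, 126 and 127 CPM in the 3 LSK libraries and 5.88, 7.4 and 12.1 in the 3 LK libraries (log2 fold change 4.16 ± 0.32 (SE), edgeR adjusted p = 0.00013). Mecom, which encodes the transcription factor EVI1, was at 47.2, 43.7 and 42.5 CPM in the 3 LSK libraries and 1.41, 2.01 and 3.82 in the 3 LK libraries (log2 fold change 4.20 ± 0.36 (SE), edgeR adjusted p = 0.00018). Every LSK library was thus more than 10 times above every LK library for both transcription factors. Procr, the endothelial protein C receptor and a surface marker of stem cells, was at 12.2, 5.83 and 13 CPM in the 3 LSK libraries and 0.331, 0.423 and 0.749 in the 3 LK libraries. Esam, an adhesion molecule shared by stem and endothelial cells, was at 22.4, 21.1 and 28.9 CPM in the 3 LSK libraries and 0.414, 0.792 and 1.12 in the 3 LK libraries.

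Further surface and signaling genes of the stem cell list followed. Fgd5 had a log2 fold change of 5.26 ± 0.69 and was highest in LSK replicate 2 (8.29, 20.7 and 7.54 CPM in LSK). The guidance receptor gene Robo4 had one of 5.16 ± 0.60 and was lowest in that library (18.3, 9.85 and 23.1 CPM). Mycn, the MYC relative of immature cells, was at 82.4, 64.4 and 60.1 CPM in the 3 LSK libraries and 4.47, 7.03 and 6.44 in the 3 LK libraries. Meis1, the cofactor of HOX proteins, was at 141, 70.2 and 151 CPM in the 3 LSK libraries and 16.3, 18.6 and 24.1 in the 3 LK libraries, and Angpt1, the ligand of the TIE2 receptor, at 314, 219 and 402 CPM in the 3 LSK libraries and 40.6, 47.7 and 67.9 in the 3 LK libraries. The receptor genes themselves, Tek (TIE2) and Tie1, had log2 fold changes of 2.51 ± 0.45 and 3.00 ± 0.37. Cd34 was 4.07-fold higher and Slamf1, which encodes the SLAM marker CD150, 2.46-fold higher. Slamf1 was not called (edgeR) without LK replicate 1 (adjusted p = 0.11), LK replicate 2 (0.084), LSK replicate 1 (0.06) or LSK replicate 3 (0.077).

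Mllt3 and Bex4 went the other way. Mllt3, a chromatin reader that sustains stem cells and also takes part in erythroid and megakaryocyte development, was at 25.7, 19.9 and 22.5 CPM in the 3 LSK libraries and 57.3, 59.2 and 49.7 in the 3 LK libraries (log2 fold change -1.29 ± 0.19 (SE), edgeR adjusted p = 0.0016). Bex4 was at 5.17, 11.6 and 6.48 CPM in the 3 LSK libraries and 51.6, 34 and 46.6 in the 3 LK libraries. In both cases the 3 LK libraries lay above the 3 LSK libraries. The summed level of the stem cell list was 1761 to 2386 CPM in LSK and 477 to 715 CPM in LK libraries, and the highest LK value was that of replicate 3.

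The Hox clusters encode transcription factors that are expressed in immature cells and shut off during differentiation. Only 10 of 39 Hox genes were tested, 5 were called higher in LSK cells and none lower. Hoxa9 was at 39.6, 37.6 and 45.9 CPM in the 3 LSK libraries and 11.3, 15.7 and 14.6 in the 3 LK libraries and Hoxa7 at 27.5, 22.5 and 34.7 CPM in the 3 LSK libraries and 8.86, 11.7 and 13 in the 3 LK libraries. The called genes were all of the A cluster. Hoxa10 had a log2 fold change of 4.46 ± 0.66, Hoxa6 of 3.03 ± 0.69 and Hoxa3 of 2.05 ± 0.48, at no more than 8.75 CPM in any library. Without LK replicate 1 or LK replicate 2, 3 Hox genes were called.

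Regulators of the G1 phase differed in opposite directions by family. Cdkn1c, which encodes the p57 inhibitor that keeps stem cells quiescent, was at 6.54, 8.28 and 4.48 CPM in the 3 LSK libraries and 0.746, 0.475 and 0.525 in the 3 LK libraries (log2 fold change 3.46 ± 0.53 (SE), edgeR adjusted p = 0.002). The D-type cyclin gene Ccnd1 was at 81.2, 67.5 and 56 CPM in the 3 LSK libraries and 18.6, 14.7 and 21.8 in the 3 LK libraries. In contrast, the E-type cyclin gene Ccne1, which acts at entry into S phase, was at 22.1, 18.2 and 22.6 CPM in the 3 LSK libraries and 212, 184 and 127 in the 3 LK libraries (log2 fold change -3.05 ± 0.23 (SE), edgeR adjusted p = 0.0001), and Ccne2 was 2.25-fold lower in LSK cells. The p19 inhibitor gene Cdkn2d had a log2 fold change of 1.49 ± 0.24. Among 13 genes of CDK inhibitors, G1 cyclins and G1 kinases, 7 were called higher and 2 lower. The number called higher was 3 without LK replicate 1 or LK replicate 2 and 4 without LSK replicate 1. Cdkn1a, which encodes p21, had a log2 fold change of 0.77 ± 0.23 and an edgeR adjusted p of 0.033, which was 0.053 with same-numbered libraries paired.

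Genes that mark lymphoid priming, the early expression of lymphocyte genes in multipotent progenitors, were higher in LSK cells. Of 16 tested, 11 were called higher and 2 lower, with a median of 1.78. Flt3, the receptor that marks lymphoid-primed multipotent progenitors, was at 263, 274 and 248 CPM in the 3 LSK libraries and 28.9, 26.2 and 38.7 in the 3 LK libraries (log2 fold change 3.07 ± 0.19 (SE), edgeR adjusted p = 9.4e-05). Dntt, the terminal transferase that adds bases to antigen receptor joints, was at 119, 358 and 102 CPM in the 3 LSK libraries and 3.23, 5.07 and 6.22 in the 3 LK libraries. LSK replicate 2 stood above the other LSK libraries for Dntt, and the lowest LSK library was still above every LK library. Ltb, the lymphotoxin beta gene, was at 27.8, 34.3 and 30.1 CPM in the 3 LSK libraries and 0.828, 0.264 and 1.27 in the 3 LK libraries. Satb1, a chromatin organizer of lymphoid cells, was at 156, 207 and 122 CPM in the 3 LSK libraries and 22.5, 24.4 and 38.2 in the 3 LK libraries. Mef2c, Notch1, Lax1 and Ighm were also called higher, with log2 fold changes of 1.87, 1.68, 5.11 and 1.87.

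The 2 lymphoid genes called lower were transcription factors that are active well beyond lymphocytes. Ikzf1 had a log2 fold change of -0.55 ± 0.16 and Bcl11a, also the repressor of fetal globin, of -0.64 ± 0.20. Neither was called when libraries were scaled by their totals alone, nor without LSK replicate 2 or any 1 LK replicate. Markers of mature B cells summed to 11 to 24 CPM in LSK and 8.78 to 13 CPM in LK libraries. Those of T and NK cells summed to 116 to 128 CPM in LSK and 56.3 to 109 CPM in LK libraries, and Cd3e had at most 3 counts in any library. Of these lists 2 of 10 and 2 of 12 genes were tested, and Lck, a kinase of the T cell receptor, was called higher at 15, 21.6 and 17.6 CPM in the 3 LSK libraries and 0.746, 1.06 and 1.57 in the 3 LK libraries. The part of mature lymphocytes in the lymphoid result was not tested.

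MHC class II genes, whose products present peptides to CD4+ T cells, were higher in LSK cells as a group. Of 9 tested, 8 were called higher and none lower, against 18.4% and 12.8% of all genes. Cd74, the invariant chain, was at 105, 149.8 and 94.2 CPM in the 3 LSK libraries and 9.69, 5.65 and 9.44 in the 3 LK libraries (log2 fold change 3.82 ± 0.29 (SE), edgeR adjusted p = 0.00011). H2-Aa was at 68.2, 132 and 94.9 CPM in the 3 LSK libraries and 7.54, 2.96 and 8.69 in the 3 LK libraries, and H2-Eb1 at 45.7, 48.8 and 82.5 CPM in the 3 LSK libraries and 4.47, 1.16 and 4.87 in the 3 LK libraries. Ciita, the transactivator of the class II genes, was at 8.6, 6.62 and 9.49 CPM in the 3 LSK libraries and 1.24, 0.37 and 0.899 in the 3 LK libraries. Each LSK library was above each LK library for 8 of the 9 genes, against 26.2% of all genes tested. Markers of monocytes and dendritic cells summed to 515 to 752 CPM in LSK and 536 to 865 CPM in LK libraries. Of 15 tested, 2 were called higher and 2 lower, against 18.4% and 12.8% of all genes. The part of such cells in the class II result was not tested.

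Genes of megakaryocytes and platelets were also higher in LSK than in LK cells. Of 15 tested, 11 were called higher and none lower, and all 15 had a positive log2 fold change. Vwf, the von Willebrand factor of platelet granules, was at 84.5, 82.2 and 73.8 CPM in the 3 LSK libraries and 22.6, 21.2 and 30.5 in the 3 LK libraries (log2 fold change 1.69 ± 0.20 (SE), edgeR adjusted p = 0.00066). Itga2b, the CD41 integrin chain, was at 285, 319 and 350.1 CPM in the 3 LSK libraries and 72.2, 76.3 and 102 in the 3 LK libraries. Pf4, the platelet factor 4 chemokine, was at 45.6, 104 and 60.5 CPM in the 3 LSK libraries and 14.3, 6.13 and 17.9 in the 3 LK libraries, and Selp, the P-selectin of platelet granules, at 147, 72.4 and 130.5 CPM in the 3 LSK libraries and 24.2, 14.7 and 29.5 in the 3 LK libraries. The summed level of the list was 1184 to 1228 CPM in LSK and 219 to 374 CPM in LK libraries, with no overlap between the groups. Genes of the platelet receptor complex that appears late in maturation were not called: Gp9 had a log2 fold change of 0.73, Gp5 of 0.38 and Gp1ba of 0.14 ± 0.38, and Gp1bb, Gp6, Ppbp and Tubb1 had too few counts.

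**Figure D3:**
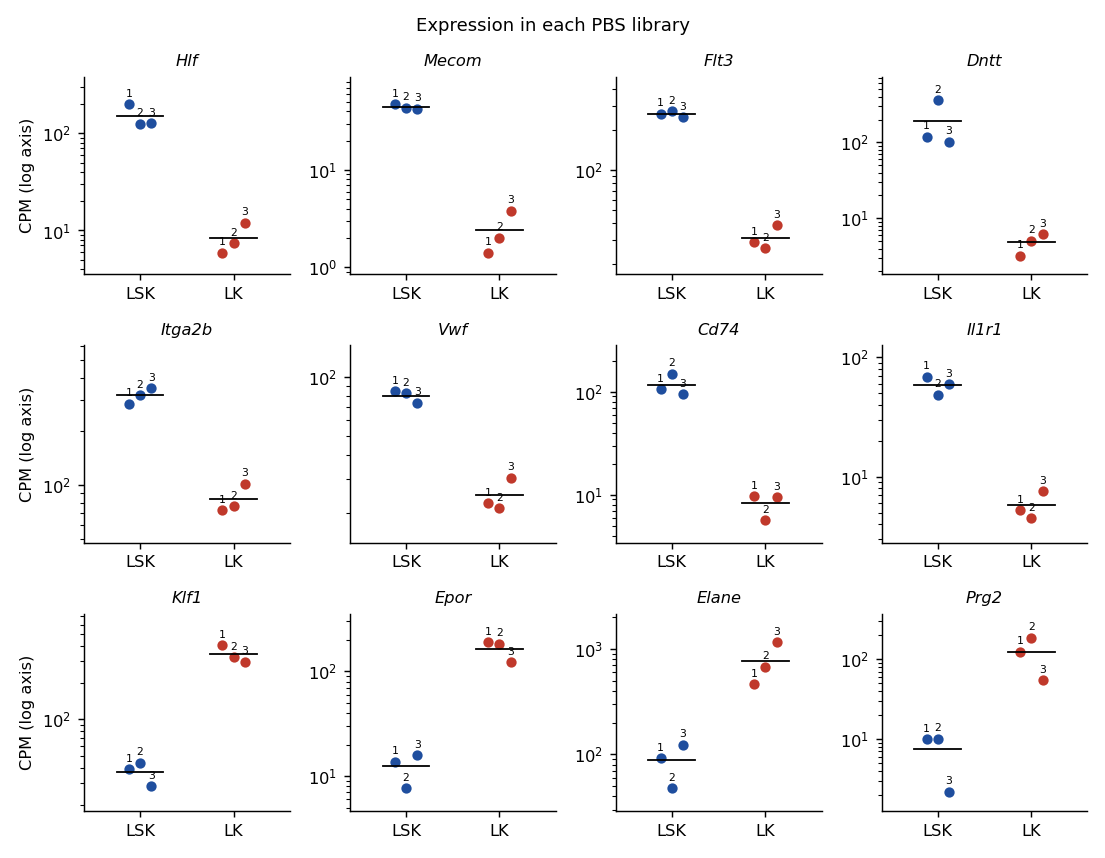
CPM on a log axis in each of the 6 PBS libraries for 12 genes, with LSK libraries in blue, LK libraries in red, the replicate number beside each point and the mean as a black line. The first 8 genes are higher in every LSK library, and Klf1, Epor, Elane and Prg2 are higher in every LK library.

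Erythroid genes were higher in LK cells almost as a whole. All 28 were tested, 27 were called lower in LSK and none higher, and the summed level was 1275 to 1443 CPM in LSK and 8183 to 11103 CPM in LK libraries. Klf1, the master transcription factor of the red cell program, was at 39, 44 and 28.3 CPM in the 3 LSK libraries and 404, 325 and 297 in the 3 LK libraries (log2 fold change -3.21 ± 0.22 (SE), edgeR adjusted p = 9.4e-05). Epor, the erythropoietin receptor whose signal passes through JAK2, was at 13.7, 7.65 and 15.9 CPM in the 3 LSK libraries and 189, 184 and 122 in the 3 LK libraries (log2 fold change -3.73 ± 0.31 (SE), edgeR adjusted p = 0.00016). Rhd, which encodes a red cell membrane protein of the Rh blood group complex, was at 6.31, 2.05 and 8.49 CPM in the 3 LSK libraries and 222, 164 and 115 in the 3 LK libraries. Its partner Rhag was at 15.4, 7.09 and 14.7 CPM in the 3 LSK libraries and 305, 242 and 169.6 in the 3 LK libraries. Car1, a carbonic anhydrase of red cells, reached 1857, 1459 and 1826 CPM in LK libraries against 160.2, 99 and 154 in LSK. Tfrc, the transferrin receptor that imports iron, was at 316, 219 and 224 CPM in LSK and 1462, 1172 and 1010 CPM in LK.

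Within LK cells Klf1, Epor, Rhd and Rhag were all highest in replicate 1 and lowest in replicate 3. The late gene Slc4a1, the band 3 anion exchanger, was at 21.3, 6.39 and 1.8 CPM in LK and 3.12, 2.21 and 1.94 in LSK and was not called (log2 fold change -2.01 ± 0.77, edgeR adjusted p = 0.078). The alpha- and beta-globin genes Hba-a1 and Hbb-bs were at 104, 57.1 and 20.5 CPM and 60.9, 34.1 and 14.4 CPM in LK. Both are near-identical to neighbouring copies, so their split between copies is uncertain. Per kilobase of gene length, the mean level in LK cells was 1374 CPM for Car1, 223 for Klf1 and 83 for Epor.

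The promoters of the erythroid genes are shown because many share a sequence. The list was chosen as erythroid genes and the sequence is bound by an erythroid factor, so its share is not independent of that choice. GATAAG, or CTTATC on the other strand, is the core motif bound by GATA1, the erythroid transcription factor whose gene was itself 3.92-fold lower in LSK cells. Among the 20 erythroid genes with a RefSeq promoter (build GRCm38.p6), 12 (60%) held it within 250 bases before the start, compared with 4.54% of the 9517 promoters of tested genes and 6.6% of all 27025. None of 25 stem cell promoters and 4 of 15 megakaryocyte promoters (26.7%) held it. The motif was present in 5.64% of promoters of genes called lower in LSK and in 4.54% of those called higher, so that it was common in the erythroid list and not in the called genes at large. The 150 bases before the start of 5 genes follow in the direction of transcription, with the motif on either strand in capitals. They lie at chr8:84901832-84901981, plus strand (Klf1), chr9:21963577-21963726, minus strand (Epor), chr17:40810999-40811148, plus strand (Rhag), chr4:134864386-134864535, plus strand (Rhd) and chr16:58670058-58670207, plus strand (Cpox). Cpox is of the heme and iron list, in which it was the 1 gene of 12 with a promoter (8.33%) that held the motif. The 5 promoters were picked because they hold the motif, and none without it is shown.
Klf1: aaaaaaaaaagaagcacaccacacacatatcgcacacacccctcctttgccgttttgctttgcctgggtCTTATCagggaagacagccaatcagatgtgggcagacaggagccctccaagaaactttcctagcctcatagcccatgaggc
Epor: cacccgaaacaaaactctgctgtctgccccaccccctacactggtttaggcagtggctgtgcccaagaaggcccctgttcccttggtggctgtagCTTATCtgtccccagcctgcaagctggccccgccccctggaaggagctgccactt
Rhag: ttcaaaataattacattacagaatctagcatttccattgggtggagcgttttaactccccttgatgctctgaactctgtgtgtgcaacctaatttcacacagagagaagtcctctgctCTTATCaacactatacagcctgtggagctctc
Rhd: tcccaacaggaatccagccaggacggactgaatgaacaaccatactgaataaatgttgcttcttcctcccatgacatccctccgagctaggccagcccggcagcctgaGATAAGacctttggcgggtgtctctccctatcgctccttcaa
Cpox: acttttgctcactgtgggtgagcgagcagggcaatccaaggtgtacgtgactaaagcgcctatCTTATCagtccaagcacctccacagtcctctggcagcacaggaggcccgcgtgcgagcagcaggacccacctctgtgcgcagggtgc
A match of these letters describes the sequence and was not tested as a binding site.

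Genes of heme synthesis and iron import followed the erythroid genes at a smaller scale, with 14 of 16 called lower in LSK cells and none higher. Cpox, the coproporphyrinogen oxidase, was at 95.9, 93.1 and 81.3 CPM in the 3 LSK libraries and 564, 539 and 481 in the 3 LK libraries (log2 fold change -2.55 ± 0.15 (SE), edgeR adjusted p = 9.4e-05). Alas2, the erythroid form of the first enzyme, was low throughout, at 0.989, 0.0788 and 0.589 CPM in LSK and 5.63, 3.33 and 1.57 in LK, and its call was lost with library totals alone, upper-quartile factors and limma-voom. Fth1, Alas1 and Alad had log2 fold changes of -0.92, -1.19 and -1.34. Slc40a1, the iron exporter ferroportin, which red cell precursors and macrophages express, was at 6.54, 7.8 and 6.95 CPM in the 3 LSK libraries and 106, 108 and 87.6 in the 3 LK libraries. Macrophage markers summed to 26 to 30.3 CPM in LSK and 116 to 130.5 CPM in LK libraries, and 2 of 9 tested, Slc40a1 and Vcam1, were called lower in LSK. Slc40a1 is itself on this list and made up most of its sum in the LK libraries. The sum is therefore not a separate measure of macrophages. The complement genes C1qa and C1qb, which define tissue macrophages, had log2 fold changes of -0.73 and -1.01 and were not called. The part of macrophages in the iron result was not tested.

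Of 16 transcription factors of the megakaryocyte-erythroid branch, 8 were called higher and 7 lower in LSK cells. Among those called higher, Etv6 was at 464, 456 and 452 CPM in the 3 LSK libraries and 114, 138 and 188 in the 3 LK libraries, Fli1 had a log2 fold change of 1.52 ± 0.37, Gata2 of 0.95 ± 0.14, Nfe2 of 0.98 ± 0.20, and Runx1, Lyl1, Lmo2 and Cbfa2t3 lay between 0.71 and 0.84. Among those called lower, Gata1 was at 51.8, 62 and 60.3 CPM in the 3 LSK libraries and 243, 227 and 214 in the 3 LK libraries, Gfi1b at 67.7, 42.6 and 45.4 CPM in the 3 LSK libraries and 217, 169.8 and 127 in the 3 LK libraries, and Nfia at 16.1, 7.96 and 13.6 CPM in the 3 LSK libraries and 86.6, 83.6 and 57.8 in the 3 LK libraries. Gata2 and Gata1, which replace each other on shared sites as erythroid cells mature, thus had opposite signs. Tal1, Zfpm1 and Ldb1 were lower by smaller amounts (-0.65, -0.82 and -0.96). The number of higher calls was 4 without LK replicate 1 or LK replicate 2 and 5 without LSK replicate 1.

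Neutrophil granule genes were higher in LK cells in part. Elane, the neutrophil elastase, was at 91.9, 47.8 and 124 CPM in the 3 LSK libraries and 464, 677 and 1148 in the 3 LK libraries (log2 fold change -3.12 ± 0.42 (SE), edgeR adjusted p = 0.0012). Ms4a3, a marker of granulocyte-monocyte progenitors, was at 22.2, 28.2 and 38.1 CPM in the 3 LSK libraries and 97.8, 115 and 184 in the 3 LK libraries. Mpo, the myeloperoxidase, was already abundant in LSK cells and was at 1876, 1816 and 2314 CPM in the 3 LSK libraries and 3324, 4103 and 7165 in the 3 LK libraries (log2 fold change -1.28 ± 0.30 (SE), edgeR adjusted p = 0.012). Prtn3, proteinase 3, was 2.32-fold lower in LSK cells. For each of these the LK library of replicate 3 was the highest. Of 8 primary granule genes, 4 were called lower and none higher. Ctsg, cathepsin G, had a log2 fold change of -0.89 ± 0.37 with an edgeR adjusted p of 0.097, which was 0.0052 with same-numbered libraries paired. Genes of later granules were scarce, with 5 of 14 tested and a median of 0.09 that was -0.63 without LSK replicate 1. S100a8 was at 0.913, 0.552 and 0.236 CPM in LSK and 2.4, 2.32 and 2.92 in LK, and Padi4, the enzyme of histone citrullination, was higher in LSK at 78.5, 91.4 and 81 CPM in the 3 LSK libraries and 7.87, 11.9 and 18.4 in the 3 LK libraries.

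Few of the transcription factors that drive these lineages were called. Among 12 myeloid factors 1 was called higher and 1 lower, against 18.4% and 12.8% of all genes. Spi1, which encodes PU.1, was at 139.8, 191 and 147 CPM in the 3 LSK libraries and 63.3, 59.9 and 113 in the 3 LK libraries, and Cebpe, the factor of late granulocyte maturation, at 3.04, 0.158 and 4.48 CPM in the 3 LSK libraries and 13.2, 14.3 and 26.3 in the 3 LK libraries. Cebpa had a log2 fold change of 0.49 ± 0.24 and Irf8 of 0.58 ± 0.27, and the LSK and LK libraries overlapped for both. Neither Spi1 nor Cebpe was called without LK replicate 1 or LK replicate 2. Lyz2, the lysozyme of monocytes and granulocytes, was 2.33-fold higher in LSK cells. Ly6c2, a surface marker of monocytes and late progenitors, was at 25.9, 11.3 and 21.7 CPM in the 3 LSK libraries and 71.5, 96 and 156 in the 3 LK libraries, and its reads may be shared with the near-identical Ly6c1.

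Of 14 genes of mast cells, basophils and eosinophils tested, 6 were called lower in LSK cells and 3 higher, against 12.8% and 18.4% of all genes. The higher calls numbered 1 without LK replicate 1 or LK replicate 2. Prg2, the major basic protein of eosinophil granules, was at 9.89, 10.1 and 2.18 CPM in the 3 LSK libraries and 125, 188 and 54.5 in the 3 LK libraries (log2 fold change -4.07 ± 0.62 (SE), edgeR adjusted p = 0.002). Hdc, the histidine decarboxylase that makes histamine, was at 12.8, 17.3 and 11.8 CPM in the 3 LSK libraries and 49.4, 53.4 and 68.3 in the 3 LK libraries, and Ms4a2, a chain of the IgE receptor, at 8.14, 2.84 and 6.72 CPM in the 3 LSK libraries and 28.3, 25.6 and 17.5 in the 3 LK libraries. The basophil protease genes Prss34 and Mcpt8 depended on 1 library. Prss34 was at 193, 48.3 and 30.4 CPM and Mcpt8 at 93.4, 28.1 and 27.4 CPM in LK cells, high in replicate 1, and neither was called (edgeR adjusted p = 0.097 and 0.1). Cma1, a mast cell chymase, went the other way at low counts (1.52, 3.7 and 5.3 CPM in LSK and 0.497, 0.898 and 1.2 in LK). The median of the list was -1.04, and -0.49 without LK replicate 1.

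Most cytokine receptors were higher in LSK cells, with 15 of 23 called higher and 2 lower. The 15 include Kit, which the sort used. Beyond Flt3 and Tek, Tgfbr2, the receptor of the quiescence signal TGF-β, was at 89.8, 81.4 and 91.2 CPM in the 3 LSK libraries and 22.6, 20.1 and 31.3 in the 3 LK libraries (log2 fold change 1.83 ± 0.21 (SE), edgeR adjusted p = 0.00059). Csf3r, the G-CSF receptor, was at 93.4, 90.9 and 101 CPM in the 3 LSK libraries and 20, 44.6 and 42 in the 3 LK libraries. Il6st, the gp130 chain shared by the IL-6 family, was 2.25-fold higher, and Csf2rb, the chain shared by IL-3, IL-5 and GM-CSF receptors, 1.7-fold higher, although its reads may be shared with Csf2rb2. Epor and Ifngr1, the binding chain of the interferon-γ receptor, were the 2 called lower. Ifngr1 was at 80.5, 39.6 and 114 CPM in the 3 LSK libraries and 187, 189 and 276 in the 3 LK libraries. The higher calls numbered 8 without LK replicate 1 or LK replicate 2, 10 without LSK replicate 1 and 17 without LSK replicate 2.

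Receptor genes of the IL-1 family differed in both directions, and the adaptor gene Myd88 was not called. Il1r1, the signaling receptor of IL-1α and IL-1β, was at 68.4, 48.6 and 59.1 CPM in the 3 LSK libraries and 5.22, 4.49 and 7.57 in the 3 LK libraries (log2 fold change 3.35 ± 0.27 (SE), edgeR adjusted p = 0.00014), a 10.2-fold difference. Il18r1, the binding chain of the IL-18 receptor, was at 12.4, 7.17 and 11.4 CPM in the 3 LSK libraries and 0.746, 0.634 and 0.45 in the 3 LK libraries. Its second chain Il18rap was at 60.9, 46 and 60.2 CPM in the 3 LSK libraries and 6.55, 5.76 and 9.22 in the 3 LK libraries. Il1rl1, the IL-33 receptor chain ST2 of mast cells and basophils, was the 1 member called lower, at 22.2, 16.2 and 17.1 CPM in the 3 LSK libraries and 102, 77.7 and 68.3 in the 3 LK libraries. Sigirr, a receptor-like inhibitor of the family, and Casp1, the protease that matures IL-1β and IL-18, were 2.82-fold and 2.17-fold higher in LSK. Casp1 was not called without LSK replicate 3, LK replicate 1 or LK replicate 2 (edgeR adjusted p = 0.052, 0.07 and 0.075).

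Il1rap, the co-receptor that Il1r1 needs, was at 18.8, 6.86 and 16.7 CPM in the 3 LSK libraries and 13.4, 13.5 and 17.6 in the 3 LK libraries (log2 fold change -0.07 ± 0.37, edgeR adjusted p = 0.9). Its sign turned without LSK replicate 2, without LK replicate 3 and with library totals alone. Myd88, the adaptor of the family, was at 57.2, 57.2 and 57.1 CPM in the 3 LSK libraries and 52.5, 54.4 and 58.2 in the 3 LK libraries, with a log2 fold change of 0.06 ± 0.15. Il18 itself was 3.73, 2.84 and 4.66 CPM in LSK and 0.166, 0.475 and 0.0749 in LK. Of the IL-1 ligands and decoys, Il1a, Il1b, Il1rn and Il1r2 had too few counts to be tested, and Il1b had at most 19 counts in any library. Over the whole list 6 of 16 were called higher and 1 lower.

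**Figure D4:**
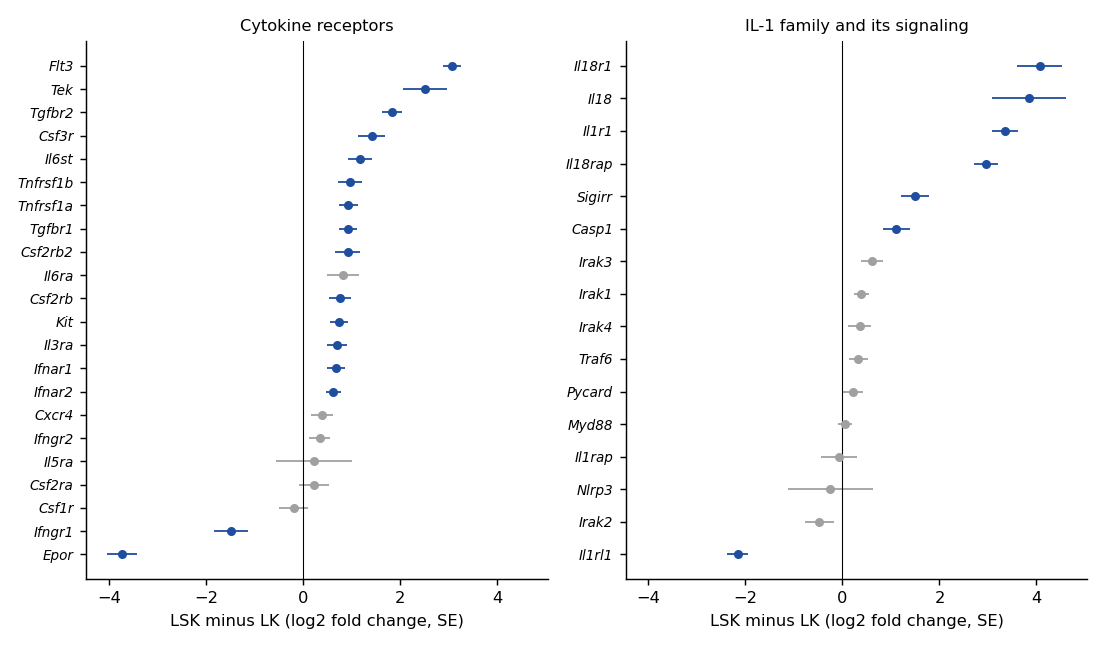
Log2 fold change of LSK minus LK (horizontal axis) with its standard error for 22 of the 23 cytokine receptor genes tested at the left and 16 genes of the IL-1 family and its signaling at the right. Blue points were called and grey points were not. At the left Flt3 (3.07) and Epor (-3.73) lie at opposite ends, and at the right Il1r1 (3.35) stands apart from Il1rap (-0.07) and Myd88 (0.06).

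Jak2 RNA, which includes transcripts of the mutant and the normal allele, was at 102, 78.8 and 86.2 CPM in the 3 LSK libraries and 82.4, 83.1 and 88.3 in the 3 LK libraries, with a log2 fold change of 0.07 ± 0.15 (edgeR adjusted p = 0.75). Of 15 tested members of the JAK2-STAT5 list, which holds both components and target genes, 7 were called higher in LSK cells and 1 lower. Over all genes the shares were 18.4% and 12.8%. Socs3, a feedback inhibitor of gp130 and G-CSF signaling, was at 11.6, 5.75 and 11.6 CPM in the 3 LSK libraries and 0.911, 2.27 and 1.72 in the 3 LK libraries. The survival kinase gene Pim1 was at 261, 266 and 267 CPM in the 3 LSK libraries and 95.5, 88.3 and 114 in the 3 LK libraries. The related Pim2 was at 55.1, 59.4 and 32.1 CPM in the 3 LSK libraries and 9.11, 8.24 and 7.87 in the 3 LK libraries. Bcl2l1, which encodes BCL-XL, was 2.85-fold higher. Osm, the oncostatin M cytokine induced by STAT5, was at 8.67, 8.28 and 7.48 CPM in the 3 LSK libraries and 18.2, 21.6 and 17.8 in the 3 LK libraries. Cish, a STAT5 target, and Stat5a had log2 fold changes of 0.31 ± 0.25 and -0.22 ± 0.17 and were not called. The higher calls numbered 4 without LK replicate 1 or LK replicate 2.

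Interferon-stimulated genes, which cells switch on in response to type I or type II interferon, were higher in LSK cells. Of 26 tested, 17 were called higher and none lower, all 26 log2 fold changes were positive and the median was 1.35. Ifit1, which binds viral RNA, was at 5.63, 8.75 and 3.77 CPM in the 3 LSK libraries and 0.746, 0.423 and 0.749 in the 3 LK libraries. Oasl2, an oligoadenylate synthetase relative, was at 28.7, 25.5 and 25.9 CPM in the 3 LSK libraries and 2.49, 2.8 and 4.35 in the 3 LK libraries (log2 fold change 3.05 ± 0.29 (SE), edgeR adjusted p = 0.0003). Gbp2, a guanylate-binding protein, was at 54.3, 28.5 and 58.6 CPM in the 3 LSK libraries and 7.04, 6.71 and 11.6 in the 3 LK libraries. Ifi44 was at 11.2, 10.2 and 8.07 CPM in the 3 LSK libraries and 1.08, 0.317 and 0.749 in the 3 LK libraries. Isg15, the ubiquitin-like modifier, was at 4.64, 17.5 and 6.01 CPM in LSK and 4.47, 2.38 and 2.1 in LK and was not called (edgeR adjusted p = 0.06), with LSK replicate 2 above the other LSK libraries. Without LK replicate 1 or LK replicate 2 8 of the list were called, and without LSK replicate 1 10. The interferon receptor genes Ifnar1 and Ifnar2 had log2 fold changes of 0.68 and 0.62.

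The promoters of this list are shown because many share a sequence. The list was chosen for response to interferon, so the share of an interferon response element is not independent of that choice. The core of the interferon-stimulated response element was searched on both strands, as GAAA, any 2 bases and GAAA again. Of 20 genes of the list with a RefSeq promoter, 11 (55.0%) held it in the 250 bases before the start, against 2.63% of promoters of tested genes and 3.04% of all. Promoters of genes called higher in LSK held it in 3.71% and those of genes called lower in 2.09%. The 150 bases before the start of Ifit1 (chr19:34640739-34640888, plus strand), Gbp2 (chr3:142620513-142620662, plus strand) and Igtp (chr11:58199406-58199555, plus strand), an interferon-induced GTPase gene, follow with the motif in capitals.
Ifit1: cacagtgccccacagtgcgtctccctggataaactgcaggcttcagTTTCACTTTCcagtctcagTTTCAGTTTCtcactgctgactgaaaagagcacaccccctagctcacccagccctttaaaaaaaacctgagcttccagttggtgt
Gbp2: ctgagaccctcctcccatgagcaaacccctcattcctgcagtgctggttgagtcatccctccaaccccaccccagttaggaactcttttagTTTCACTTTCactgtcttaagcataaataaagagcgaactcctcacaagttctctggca
Igtp: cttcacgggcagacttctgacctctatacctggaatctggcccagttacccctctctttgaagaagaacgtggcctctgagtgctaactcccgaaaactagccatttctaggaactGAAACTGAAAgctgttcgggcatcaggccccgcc
The Ifit1 promoter holds the motif at 2 places, and those of Gbp2 and Igtp at 1 each. No promoter without the motif is shown. Those of Oasl2 and Ifi44, both higher in LSK, held none in the 250 bases. That of Isg15, which was not called, held 3.

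Genes of MHC class I presentation were higher in LSK for 10 of 13, with none lower. Nlrc5, the transactivator of class I genes, was at 132, 138 and 118 CPM in the 3 LSK libraries and 40.9, 48.7 and 55.8 in the 3 LK libraries (log2 fold change 1.41 ± 0.17 (SE), edgeR adjusted p = 0.00073). Psmb9, a subunit of the immunoproteasome, was at 120.0, 187 and 148 CPM in the 3 LSK libraries and 63.5, 50 and 88.6 in the 3 LK libraries, and the class I heavy chain gene H2-K1 at 1663, 1854 and 2074 CPM in the 3 LSK libraries and 882, 686 and 1142 in the 3 LK libraries, a gene whose reads may be shared with near-identical relatives. B2m, the light chain, was at 1163, 424 and 1222 CPM in the 3 LSK libraries and 771, 552 and 972 in the 3 LK libraries and was not called. The calls numbered 6 without LK replicate 1.

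Of 31 DNA replication genes 10 were called lower in LSK and 1 higher, against 12.8% and 18.4% of all genes, with a median of -0.42. Rrm2, a subunit of ribonucleotide reductase, was at 172, 144 and 145 CPM in the 3 LSK libraries and 418, 423 and 321 in the 3 LK libraries (log2 fold change -1.33 ± 0.17 (SE), edgeR adjusted p = 0.00089). Cdc6, which loads the replicative helicase, was at 87.8, 73.5 and 78.7 CPM in the 3 LSK libraries and 193, 191 and 161 in the 3 LK libraries. Mcm2, of that helicase, was at 435, 356 and 413 CPM in the 3 LSK libraries and 513, 516 and 569 in the 3 LK libraries and was not called. Of 25 genes that act in mitosis, 5 were called lower and 1 higher, with a median of -0.25. Cenpa, the histone of centromeres, was at 83.9, 103 and 108 CPM in the 3 LSK libraries and 252, 251 and 197 in the 3 LK libraries, whereas the proliferation marker Mki67 was at 880.2, 508 and 543 CPM in the 3 LSK libraries and 809.7, 858 and 626 in the 3 LK libraries (log2 fold change -0.25 ± 0.24). The replication calls lower in LSK numbered 5 without LK replicate 1, 6 without LK replicate 2 and 6 with library totals alone. The mitosis calls lower in LSK numbered 1 without LK replicate 1 and 3 without LK replicate 2, without LK replicate 3 or with library totals alone.

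Among 28 genes of the MYC network and ribosome biogenesis, 17 were called lower in LSK cells and 2 higher. The higher ones were Mycn and Mxd4, a MYC antagonist, and the lower ones were all genes of ribosome production. Nolc1, a nucleolar assembly factor, was at 241, 229.8 and 246 CPM in the 3 LSK libraries and 454, 471 and 527 in the 3 LK libraries (log2 fold change -1.02 ± 0.14 (SE), edgeR adjusted p = 0.0013). Myc itself was at 424, 196 and 402 CPM in the 3 LSK libraries and 401, 339 and 487 in the 3 LK libraries (log2 fold change -0.26 ± 0.29). Genes of mitochondrial ribosomal proteins were lower in LSK for 40 of 77, with none higher and 74 of 77 log2 fold changes negative. Mrpl41 was at 10.1, 12.8 and 18.9 CPM in the 3 LSK libraries and 52.9, 43.7 and 34.9 in the 3 LK libraries. Genes of cytosolic ribosomal proteins were called lower for 9 of 82, a smaller share than the 12.8% of all genes, and their summed level overlapped at 57728 to 88446 CPM in LSK and 82922 to 101130 CPM in LK libraries. The number called lower was 31 with same-numbered libraries paired, 45 without LSK replicate 3 and 1 without LK replicate 1. Without LK replicate 1, 19 mitochondrial ribosomal and 9 MYC network genes were called lower.

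Gene length moved with the comparison. The median log2 fold change was -0.17 in the 3186 shortest of the tested genes and 0.25 in the 3184 longest, and genes called higher in LSK had a median length of 5580 bases against 3597 for those called lower. Mitochondrial ribosomal protein genes had a median length of 2533 bases and a median log2 fold change of -0.73, and 8912 tested genes within the range of lengths of most of them had a median of -0.03 and a median length of 3567 bases. The part of gene length in these results was not tested. Cytosolic ribosomal protein genes had a median length of 1776 bases and a median log2 fold change of -0.45.

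Markers of stromal and endothelial cells summed to 66 to 97.4 CPM in LSK and 24.2 to 30.9 CPM in LK libraries. Of 12 genes 5 were tested and 3 were called higher in LSK, namely Pdgfrb at 81.4, 53.3 and 70.9 CPM in the 3 LSK libraries and 18.3, 18.8 and 22.4 in the 3 LK libraries, Bgn at 10, 6.31 and 6.9 CPM in the 3 LSK libraries and 0.994, 0.581 and 0.525 in the 3 LK libraries, and Kdr, the VEGF receptor, with a log2 fold change of 1.98 ± 0.61. The higher calls numbered 2 without LSK replicate 1, LSK replicate 3 or any 1 LK replicate. They were also 2 with same-numbered libraries paired, all 10 libraries in 1 fit or no filter on low counts. The stromal genes Cxcl12, Lepr and Col1a1 and the endothelial gene Cdh5 had too few counts to be tested. Esam, Robo4, Tek and Tie1 of the stem cell list are also endothelial genes, and the part of such cells in their difference was not tested.

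The same contrast was available in 4 other libraries, 2 LSK and 2 LK, from Mx1Cre; Jak2 VF/+ recipients that had received IL-1β at 0.5 μg, 3 times per week for 16 weeks. These share no sample with the PBS libraries but were shallower, at 4393233 to 8641124 counted read pairs. There, 491 of 11743 genes tested were called higher in LSK (4.18%) and 486 lower (4.14%). Of 2068 genes called higher with PBS and tested in both, 85.1% had a positive log2 fold change with IL-1β, where 48.9% of all 11578 genes tested in both did. Of 1592 genes called lower with PBS, 89.8% had a negative one, where 51.1% of all did. Genes called in the same direction numbered 317 higher (15.3% of the PBS calls and 65.4% of the IL-1β calls tested in both) and 318 lower (20.0% and 68.5%), and 1 gene in each direction was called with the opposite sign. Pairing of same-numbered libraries raised these calls to 1013 higher and 1044 lower. Without LSK replicate 1 or 2 of the IL-1β libraries they were 1976 and 2102 or 2023 and 2147, and without LK replicate 1 or 2 they were 197 and 246 or 118 and 240, so that the IL-1β counts rested on every library.

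The median with IL-1β was -3.37 for erythroid genes, with 18 of 27 called lower in LSK, and 2.11 for megakaryocyte genes, with 8 of 14 called higher. Epor had a log2 fold change of -2.29 (edgeR adjusted p = 0.015), Rhag of -3.65 (0.017) and Selp of 2.04 (0.0079). For stem cell genes the median was 1.85, with 12 of 19 called higher and 1 lower. Hlf had 1.17 (0.05), at 39 and 27.3 CPM in the LSK libraries and 12.9 and 16.7 in the LK libraries. For interferon-stimulated genes the median was 0.61 and none of 22 was called by edgeR (4 higher and 0 lower at an unadjusted p under 0.05), and for the IL-1 list it was -0.04 with none of 14 called (3 higher and 2 lower unadjusted). For mitochondrial ribosomal protein genes the median was -0.08, with 2 of 77 called higher and 3 lower. For the MYC and ribosome biogenesis list it was -0.09, with 2 higher and 1 lower of 28. For cytosolic ribosomal protein genes it was 0.13, of the opposite sign to the PBS median, with 6 higher and 3 lower of 82. Lymphoid priming genes had a median of 0.36, with 3 higher and 0 lower of 14 (6 higher and 3 lower unadjusted). Cytokine receptors had one of 0.19, with 3 higher and 2 lower of 23. The JAK2-STAT5 list had one of 0.33, with 2 higher and 0 lower of 15 (6 higher and 1 lower unadjusted). Differences between the medians of the treatments were not tested. Il1r1 had 1.49 with an edgeR adjusted p of 0.057, at 31.5 and 15.7 CPM in the LSK libraries and 9.36 and 7.65 in the LK libraries. Over all genes the difference between the 2 contrasts passed the adjustment (edgeR, interaction of population and treatment) for 4 of 13839 genes (0.0289%), and 1967 had an unadjusted p under 0.05.

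**Figure D5:**
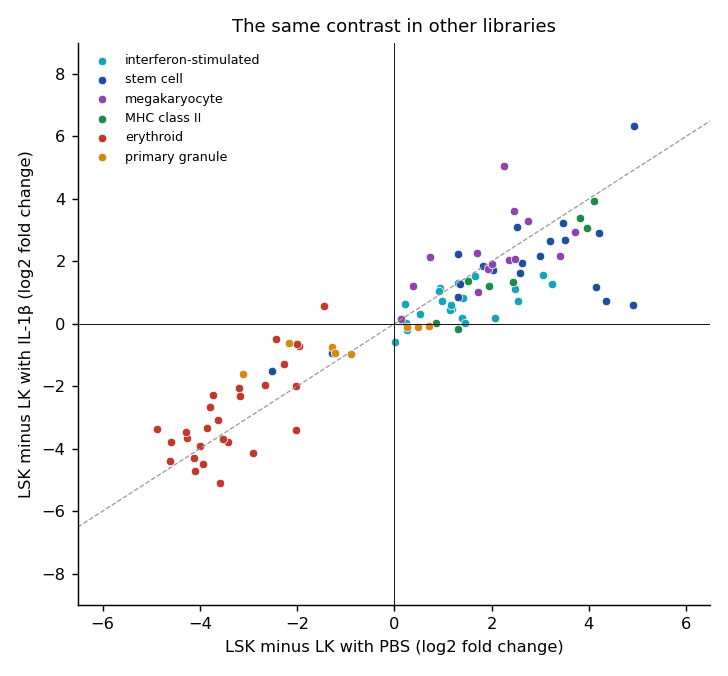
Log2 fold change of LSK minus LK with PBS (horizontal axis, 6 libraries) and with IL-1β (vertical axis, 4 other libraries) for genes of 6 groups tested in both. The dashed line marks equal values. Erythroid genes lie low in both contrasts and megakaryocyte genes high in both, and the interferon-stimulated genes lie nearer to 0 with IL-1β (median 0.61) than with PBS (1.35), a difference between medians that was not tested.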

How the data were processed

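LSK and LK libraries were grouped by their sample labels. The deposited values are counts of read pairs per gene, which the authors made without normalization: per the labels and file headers, reads were trimmed with fastp 0.20.0, aligned with HISAT2 2.0.1 to GRCm38 and counted with featureCounts 2.0.2 on Ensembl release 100 genes. Counting was by strand, with no option for read pairs that map to several places, so near-identical genes lose reads. The methods name GenomicAlignments as well. Ribosomal RNA was depleted before library preparation. The LSK and LK tables were joined by identifier, and symbols were matched for 55141 of 55487 identifiers. All library columns of the 2 tables belonged to samples.

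The test was that of edgeR 4.0.16 in R 4.3.3 (low counts removed by filterByExpr, TMM factors, robust quasi-likelihood F test, two-sided, Benjamini-Hochberg adjustment) over the 6 PBS libraries with population as the only factor. The biological coefficient of variation was 0.311. The IL-1β contrast was fitted on its 4 libraries and the interaction on all 10. Alternatives were DESeq2 1.42.0, limma-voom (limma 3.58.1), other scaling factors, other filters, the replicate number as a block, all 10 libraries in 1 fit, and each library left out. Genes with at most 3 counts in every library of a group were set against a floor of 3 counts per library. The floor covers counting error only, since PCR copies are not independent molecules. In simulated data with this design, 77.2% of 193 genes changed by a log2 fold change of 2 were recovered with 9 false calls among 12413 genes. The simulation changed far fewer genes than the 31.2% called here and drew replicates independently, so these rates need not hold for the data.

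LSK and LK libraries of the same number moved together around their group means (correlations over tested genes of 0.226, 0.132 and 0.504 for replicates 1, 2 and 3, on log2 CPM), and so were taken as paired in the alternative fit. LSK replicate 2 correlated slightly better with LK replicate 1 (0.183), and LSK replicate 1 correlated with LK replicate 2 at 0.155. The numbers 1 and 2 were therefore not clearly told apart, only replicate 3 stood out, and the labels name no animal.

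The members and gene lists were chosen with earlier results of these data known. Named genes are list members and the 10 largest log2 fold changes in each direction among called genes whose groups did not overlap and whose average was 1 log2 CPM or more. Mt1 and Nfatc2 were named after their values were seen. Promoter sequences are from RefSeq on GRCm38.p6. The 4 MSC samples of the series were not used here, and values of some single members of the lists are not reported here. Figures were drawn with matplotlib 3.10.9.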

Additional observations from a re-analysis of the deposited data

Results flagged for a closer look

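The difference between LSK and LK cells was itself tested between treatments, and 4 genes passed. For each, the value is the log2 difference with IL-1β minus that with PBS, by edgeR's interaction test. Mt1, which encodes a metal-binding metallothionein, had 2.12 ± 0.23 (SE, adjusted p = 0.012). It was at 31.5, 31.6 and 27.8 CPM in the 3 LSK libraries and 239, 199 and 197 in the 3 LK libraries with PBS and at 163 and 181 CPM in the LSK libraries and 268 and 271 in the LK libraries with IL-1β. Nfatc2, a transcription factor activated by calcium signals, had -4.34 ± 0.52 (adjusted p = 0.016) and was at 29.6, 22.4 and 18.6 CPM in the 3 LSK libraries and 1.16, 1.22 and 0.899 in the 3 LK libraries with PBS and at 4.64 and 3.29 CPM in the LSK libraries and 3.59 and 3.9 in the LK libraries with IL-1β. Lax1, an adaptor of lymphocyte receptors, had -4.78 ± 0.64 (adjusted p = 0.031) and was at 4.06 and 2.58 CPM in the LSK libraries and 2.18 and 3.12 in the LK libraries with IL-1β. Il18rap had -3.58 ± 0.51 (adjusted p = 0.048) and was at 28.3 and 12.5 CPM in the LSK libraries and 39.4 and 22.3 in the LK libraries with IL-1β, where the libraries of both populations overlapped (-0.57, adjusted p = 0.42). The number of genes that passed depended on single libraries and was 0 to 336 when 1 of the 10 was left out, with 336 without LSK PBS replicate 2 and 199 without LSK IL-1β replicate 1, and at most 2 without any other. Depth differed between the treatments, and its part in these differences was not tested. Groups of 2 or 3 libraries are too small for a check of single outlying samples.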

How the results depend on the processing

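The counts of genes higher and lower in LSK cells with PBS stayed within 1.5 times of the reported ones under DESeq2, limma-voom, all scaling factors, both other filters, no fold-change threshold, all 10 libraries in 1 fit and pairing of the replicates. Pairing gave 2340 higher and 1793 lower, and beside the genes named with a paired value it changed the call of Clec5a (0.13 to 0.019). The higher calls of the stromal and endothelial list numbered 2 with pairing (reported 3). Library totals alone gave 2553 and 1229, the largest change of balance (67.5% of calls higher, reported 58.9%). Leaving out 1 library gave 1302 to 2796 higher and 843 to 2169 lower. With IL-1β the leave-one-out fits gave 118 to 2023 higher and 240 to 2147 lower, where a lone library is assumed to vary like the other group, and pairing gave 1013 and 1044. The interaction called 24 genes with pairing and 0 to 336 with 1 library left out. Leave-one-out fits of the IL-1β contrast and the interaction, and lowest folds without 1 library, were added after seeing the data. List medians with 1 library left out ranged over 1.16 to 1.71 (Hox), -1.97 to -1.58 (heme and iron), -1.35 to -0.49 (mast cell, basophil and eosinophil), 1.13 to 1.46 (interferon-stimulated), -1.18 to -0.54 (macrophage), 0.0908 to 0.21 (megakaryocyte-erythroid factors), -1.40 to -0.65 (primary granule), -0.63 to 0.41 (late granule), 0.41 to 0.80 (JAK2-STAT5), 2.04 to 2.70 (MHC class II), -0.50 to -0.35 (DNA replication), 0.26 to 0.61 (glycolysis), -0.40 to -0.25 (cholesterol) and 0.86 to 1.32 (adhesion). With library totals alone the MYC and ribosome biogenesis median was -0.52. Signs turned for 3 genes that were not called. Il1rap was 0.0357 with library totals alone and -0.36 to 0.25 with 1 library left out, Jak2 -0.0790 to 0.15 and Myc -0.49 to 0.00771. Low counts limit the Hox, IL-1 ligand and late granule genes. The cause of these changes was not tested.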

Other observations

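Of 19 glycolysis genes tested, 5 were called higher in LSK cells and 2 lower, against 18.4% and 12.8% of all genes. Slc2a1, the glucose transporter GLUT1, was at 27.3, 40.2 and 31.9 CPM in the 3 LSK libraries and 4.81, 6.23 and 11.3 in the 3 LK libraries, and Pkm, the pyruvate kinase, and Hk2, a hexokinase, had log2 fold changes of 1.55 ± 0.30 and 1.13 ± 0.29. The related hexokinase gene Hk1 and the phosphofructokinase gene Pfkm were lower (-0.59 and -1.10). The higher calls numbered 3 without LK replicate 1, 2 without LK replicate 2 and 8 without LK replicate 3. In the cholesterol pathway, Srebf2, its transcriptional regulator, was higher (1.02 ± 0.17), and Sqle, squalene epoxidase, lower (-0.74 ± 0.17), with 3 higher and 1 lower of 21, a smaller share of each than over all genes. With 1 library left out the pathway had 1 to 4 genes higher and up to 4 lower, the most without LSK replicate 2 and the fewest without LK replicate 1.

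Of 9 imprinted genes tested, 2 were called higher, Cdkn1c and Sgce, and 2 lower, Grb10 and Igf2r. The shares over all genes were 18.4% and 12.8%. Igf2r, the receptor that clears IGF2, was at 10.1, 17.5 and 4.71 CPM in the 3 LSK libraries and 46.8, 38.8 and 28.3 in the 3 LK libraries. Among 18 adhesion and niche genes, 10 were called higher and 1 lower, with Alcam at a log2 fold change of 1.96 ± 0.27 and the integrin gene Itga6 at 1.55 ± 0.29. The higher calls numbered 6 without LK replicate 1 and 6 without LK replicate 2. The chemokine receptor gene Cxcr4 was at 138, 89.1 and 151 CPM in the 3 LSK libraries and 89.5, 81.2 and 118 in the 3 LK libraries and was not called. Immediate early genes, which respond to handling within minutes, summed to 309 to 1002 CPM in LSK and 251 to 902 CPM in LK libraries. Of 13 tested, 2 were called, against 31.2% of all genes called in either direction. Of the 5 genes the study took up for RT-qPCR, Odc1 and Eif4a1 were lower in LSK cells with PBS (-0.92 and -0.63), and Bcat1, Lcn2 and Clec5a were not called. Neither call held without LK replicate 1 (edgeR adjusted p = 0.096 and 0.09). Odc1 was also not called without LSK replicate 1 (0.065), LSK replicate 3 (0.054) or LK replicate 2 (0.063), nor Eif4a1 without LK replicate 3 (0.059).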
